A study of Homo sapiens with 4 samples.

Results

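The CXC chemokine cluster on the long arm of chromosome 4 was followed through its 8 ligand genes CXCL1, CXCL2, CXCL3, CXCL5, CXCL6, CXCL8, PPBP and PF4. They were chosen by gene name, and each was found once among the 50868 genes of the count tables. The RNA came from A549, a cell line of human lung adenocarcinoma, in 2 control libraries and 2 libraries of cells overexpressing USP12, a deubiquitinase. All 4 libraries share the A549 background, with no other treatment in the labels. The study describes lentiviral pLVX vectors carrying tagged human USP12 and an empty-vector control. Whether the transduced cells were a pool or a clone, and whether the replicates were separate cultures, is not given in the sources used here, so p-values measure the spread between these libraries, which may be technical. The libraries held between 14280081 and 16305356 counts. USP12 itself had 15.2 and 34.4 CPM (counts per 1000000 of the library's TMM-scaled total) in control replicates 1 and 2, against 1745 and 2235 CPM in USP12 replicates 1 and 2, in the direction of the labels. Control replicate 1 stood apart. The log2 ratio of the 2 control libraries had an SD of 1.32 over the 15222 genes tested, against 0.618 for the 2 USP12 libraries. The SD was 1.28 and 1.31 between control replicate 1 and each USP12 library, and at most 1.1 between control replicate 2 and either of them. The column heading for control replicate 1 also opens with a date-like prefix that differs from the one shared by the other 3. A batch and the library itself cannot be told apart here, and for the members and for the genes of the other lists and of the neighbourhood that met the study's criterion, fold changes are given with and without it.

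CXC chemokines are small secreted proteins named for a residue that sits between their first cysteines. CXCL1, CXCL2, CXCL3, CXCL5, CXCL6, CXCL8 and the processed product of PPBP carry the ELR motif ahead of those cysteines, bind CXCR2 and draw neutrophils and other myeloid cells to a tissue. PF4, platelet factor 4, lacks the motif and is stored with PPBP in platelet granules. In epithelial cells the ELR-bearing genes are classical targets of NF-κB, downstream of IL-1 and TNF, and their short-lived transcripts are cleared by proteins that bind AU-rich elements.

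The 8 genes lie within 358.7 kb of chromosome 4 in GRCh38, from 73740519 to 74099196. CXCL8 (ENSG00000169429, 73740519 to 73743716), CXCL6 (ENSG00000124875, 73836640 to 73849064) and CXCL1 (ENSG00000163739, 73869393 to 73871308) are read from the plus strand. PF4 (ENSG00000163737, 73980811 to 73982027), PPBP (ENSG00000163736, 73986439 to 73988190), CXCL5 (ENSG00000163735, 73995642 to 73998677), CXCL3 (ENSG00000163734, 74036589 to 74038807) and CXCL2 (ENSG00000081041, 74097040 to 74099196) are read from the minus strand. Their main transcripts have 3 exons in PPBP and PF4 and 4 in the other ligands.

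Sequence sorts the ligands into close pairs, which bears on how their fragments could be counted. The coding sequences of CXCL1 and CXCL2 were identical at 93.5% of aligned positions, those of CXCL2 and CXCL3 at 94.4%, those of CXCL5 and CXCL6 at 87.4%, and those of CXCL1 and CXCL8 at 47.4%. The authors counted uniquely mapped fragments, so stretches common to close copies could lose fragments. Of all windows of 50 bases, 5.33% of the CXCL1 transcript, 10.1% of CXCL2 and 5.26% of CXCL3 occurred unchanged in another of the ligands or in PF4V1, the close copy of PF4. The value was 10.5% for PF4, all of it shared with PF4V1, and 0% for CXCL5, CXCL6, CXCL8 and PPBP. Values for CXCL1, CXCL2, CXCL3 and PF4 are uncertain for this reason, and these shares do not bound the error. Stretches that are nearly but not fully identical, and copies elsewhere in the genome, were not searched. In GENCODE, CXCL5 also overlaps ENSG00000287037 on the opposite strand, and PF4 and PPBP overlap ENSG00000288796 on their own strand. Neither was found in the count tables, and whether strand was used when counting is not given in the sources used here.

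The promoters are shown because the members' shared start-proximal letters can be read beside their RNA levels. The 140 bases before the RefSeq start site (GRCh38.p14) are given 5′ to 3′ on the strand of the gene. They are shown for the 6 members that held GGAATTTCC, an exact form of the κB sequence bound by NF-κB, and for PPBP, which did not. Capitals mark GGAATTTCC and, in CXCL8, the AP-1 sequence TGANTCA. The RefSeq starts of CXCL2, CXCL3, CXCL6 and CXCL8 are not those of the GENCODE gene bodies given above, so distances are counted from RefSeq's.
CXCL1, chr4:73869253-73869392, plus strand: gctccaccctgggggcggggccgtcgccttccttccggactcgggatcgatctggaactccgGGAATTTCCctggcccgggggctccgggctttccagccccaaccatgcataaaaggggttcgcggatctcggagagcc
CXCL2, chr4:74099196-74099335, minus strand: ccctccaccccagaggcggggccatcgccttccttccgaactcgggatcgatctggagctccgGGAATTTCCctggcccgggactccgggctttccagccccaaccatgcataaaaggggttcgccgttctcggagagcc
CXCL3, chr4:74038690-74038829, minus strand: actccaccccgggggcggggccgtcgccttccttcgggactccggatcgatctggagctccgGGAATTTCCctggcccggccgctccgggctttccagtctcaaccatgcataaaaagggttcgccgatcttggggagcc
CXCL5, chr4:73998678-73998817, minus strand: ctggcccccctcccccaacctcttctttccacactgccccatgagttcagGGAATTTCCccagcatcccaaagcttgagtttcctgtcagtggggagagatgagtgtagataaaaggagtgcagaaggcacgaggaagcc
CXCL6, chr4:73836538-73836677, plus strand: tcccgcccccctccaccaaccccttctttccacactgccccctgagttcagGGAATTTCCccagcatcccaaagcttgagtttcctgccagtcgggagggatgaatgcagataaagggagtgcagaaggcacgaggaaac
CXCL8, chr4:73740429-73740568, plus strand: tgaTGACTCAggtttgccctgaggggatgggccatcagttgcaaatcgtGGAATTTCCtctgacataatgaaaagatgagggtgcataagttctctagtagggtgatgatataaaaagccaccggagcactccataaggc
PPBP, chr4:73988191-73988330, minus strand: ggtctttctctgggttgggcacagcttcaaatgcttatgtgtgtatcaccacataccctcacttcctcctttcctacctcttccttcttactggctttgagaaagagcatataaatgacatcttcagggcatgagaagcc

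Of the 8 members, 7 had a promoter in the RefSeq table. On either strand of the window from 250 bases before to 50 after the start, GGAATTTCC occurred in 6 of those 7, against 162 of 35114 promoters of the same length, or 0.461%. The match began 78 bases before the start in CXCL1 and CXCL3, 77 in CXCL2, 90 in CXCL5, 89 in CXCL6 and 91 in CXCL8. CXCL6 thus held the same letters as CXCL5, and their windows were identical at 83.1% of aligned positions. The value was 82.5% for CXCL1 and CXCL3, 71.8% for CXCL2 and CXCL3 and 68.5% for CXCL1 and CXCL2. The 6 matches are therefore not independent of one another. A looser search for GGG and CC with any 5 bases between them, which overlaps the strict sequence in 5 of the members, found the same number of members, 6, but 58.7% of all promoters. The AP-1 sequence TGANTCA was in CXCL8 and in 7.71% of all promoters. The C/EBP sequence TTGCNNAAT was in PPBP and in 2.66%, and the TATA sequence TATAAA was in CXCL8 and PPBP and in 11.5%. A match describes the letters and not binding. Beyond the members, 147 gene symbols had GGAATTTCC in this window. Of the 55 that were tested, 3, or 5.45%, met the study's criterion for lower RNA, an unadjusted p of at most 0.05 together with a log2 fold change of -1 or below, as did 4.41% of all genes tested. Its mirror image was met by 4, beside 2.92% of all genes, and the median log2 fold change of the 55 was -0.15.

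Levels of different genes were set side by side as CPM per kilobase of the main transcript. CXCL5 was the highest member in all 4 libraries, with 350 and 371 CPM per kilobase in control replicates 1 and 2, against 119 and 123 in USP12 replicates 1 and 2. It ranked 238 and 138 among the 24377 genes with a length and a count in the control libraries, against 513 and 460 in the USP12 libraries. CXCL1 came second throughout, with 262 and 55.5 CPM per kilobase in control replicates 1 and 2, against 22.9 and 17.8 in USP12 replicates 1 and 2. Below these, the order changed with the library. CXCL8 had 83.8 and 15 CPM per kilobase in the control libraries, next after CXCL1 in control replicate 1 and behind CXCL3 in control replicate 2, where CXCL3 had 25.5. CXCL3 had 58.3 in control replicate 1, CXCL2 had 30.5 and 11.1, and PF4 had 19.1 and 4.95. From CXCL1 downward, the ranges of neighbours in the control libraries overlapped. In the USP12 libraries CXCL8 (3.11 and 3.97), CXCL3 (4.49 and 3.8), PF4 (4.56 and 4.75) and CXCL2 (3.29 and 2.73) lay close together. PF4 was above the other 3 in both libraries, and CXCL3 was above CXCL2 in both with no overlap of their values, while the values of CXCL8 overlapped those of CXCL3 and of CXCL2. The order of these genes depends on the length used. Per kilobase of coding sequence, PF4 was below CXCL8 and CXCL3 in both USP12 libraries. By that length CXCL8 (17.2 and 21.9) was above CXCL3 (15 and 12.7) and CXCL2 (11.4 and 9.49) without overlap. Per kilobase of all exons of the gene joined, CXCL2 (2.63 and 2.18) was above CXCL3 (2.17 and 1.84) in both USP12 libraries.

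The 2 remaining members were hardly seen. PPBP, which encodes the platelet basic protein, had 0 counts in all 4 libraries, which allows up to 3 counts, or 0.166 to 0.227 CPM. CXCL6, the near copy of CXCL5, had 0 and 2 counts in control replicates 1 and 2, against 0 and 3 in USP12 replicates 1 and 2, at or under the same limit. PF4V1 had 0 counts in 3 libraries and 2 in USP12 replicate 2. CXCL6 and PPBP therefore fell below the count filter, and no fold change is given for them. These limits, and the binomial intervals given for shares, cover counting error only.

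The comparison of USP12 with control libraries asked whether the RNA of these ligands differs when USP12 is overexpressed. In each of the 6 members that could be tested the groups did not overlap, with USP12 below control, as in 17% of all genes tested. The reverse order, seen in 19.5% of all genes, occurred in 0 of the 6. By the study's criterion 5 of the 6 were lower, against 4.41% of all genes. No member passed an adjusted p of 0.05 in edgeR's quasi-likelihood test (0 of 6), and neither did any other gene (0 of 15222, or 0% in each direction, with 1155 genes, or 7.59%, at an unadjusted p under 0.05). The edgeR exact test, the DESeq2 Wald test and a fit blocked by replicate number each called 5 of the 6 lower at an adjusted p under 0.05, where they called 1.72%, 1.79% and 1.65% of all genes. The median log2 fold change of the 6 was -2.87, beside -0.06 over all genes. Leaving out control replicate 1 gave -1.75, and leaving out control replicate 2 gave -3.48. In these fits, where the lone control library is assumed to vary like the USP12 libraries, 5 and 6 of the 6 were lower at an adjusted p under 0.05 in edgeR's quasi-likelihood test, beside 5.74% and 16.3% of all genes. In such bulk samples, fewer cells making a transcript and less transcript per cell cannot be told apart.

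CXCL5, the most abundant member, differed least between replicates. It had 852 and 904 CPM in control replicates 1 and 2, against 289 and 300 CPM in USP12 replicates 1 and 2. Both control libraries were high, both USP12 libraries were low, and within each group the values nearly coincided. The mean was 2.98-fold lower in USP12 cells, a log2 fold change of -1.58 (standard error, SE, 0.31, edgeR quasi-likelihood adjusted p = 0.237). Leaving out control replicate 1 gave -1.62 (SE 0.17), and leaving out control replicate 2 gave -1.50 (SE 0.18). Of the 6 members it was the 1 whose estimate hardly depended on which control library was used.

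CXCL3, a GRO ligand close to CXCL1 and CXCL2, had 62.7 and 27.4 CPM in control replicates 1 and 2, against 4.82 and 4.09 CPM in USP12 replicates 1 and 2. The control libraries differed 2.29-fold from each other, and even the lower one was 6.15-fold above the mean of the USP12 libraries. The log2 fold change of CXCL3 was -3.33 (SE 0.58), with an adjusted p of 0.201 from edgeR's quasi-likelihood test, the smallest among the members. Against control replicate 2 alone it was -2.62, the lowest value of the 6 members in that comparison.

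CXCL2 had 34.1 and 12.4 CPM in control replicates 1 and 2, against 3.67 and 3.05 CPM in USP12 replicates 1 and 2. The groups did not overlap, with control replicate 1 well above control replicate 2. The means differed 6.91-fold, and control replicate 2 alone was 3.68-fold above the USP12 mean. CXCL1, the best known of the GRO ligands, had 307 and 65.2 CPM in control replicates 1 and 2, against 26.8 and 20.8 CPM in USP12 replicates 1 and 2. Control replicate 1 held 4.72 times as much CXCL1 as control replicate 2, so the 7.81-fold difference of the means became 2.73-fold against control replicate 2 alone. The log2 fold changes were -2.78 for CXCL2 (SE 0.65) and -2.96 for CXCL1 (SE 0.76), and edgeR's quasi-likelihood test gave adjusted p-values of 0.301 and 0.332. Without control replicate 1 they were -1.88 and -1.45.

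CXCL8, which encodes interleukin-8, showed the largest fold difference of the members. It had 1819 and 444 counts in control replicates 1 and 2, against 71 and 94 in USP12 replicates 1 and 2, or 138 and 24.6 CPM against 5.11 and 6.51 CPM. All 4 values were ordered with both control libraries above, but control replicate 1 was 5.59-fold above control replicate 2. The log2 fold change was -3.80 (SE 0.87, edgeR quasi-likelihood adjusted p = 0.298). Leaving out control replicate 1 moved it to -2.08, and leaving out control replicate 2 to -4.53.

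PF4 was the exception among the members tested. It had 195 and 69 counts in control replicates 1 and 2, against 49 and 53 in USP12 replicates 1 and 2, or 14.8 and 3.82 CPM against 3.53 and 3.67 CPM. Control replicate 1 was high, and control replicate 2 was level with the USP12 libraries, 1.06-fold above their mean. The log2 fold change of -1.36 (SE 0.74, edgeR quasi-likelihood adjusted p = 0.815) missed the criterion, and without control replicate 1 it was -0.09 (SE 0.42). The difference of PF4 rested on control replicate 1. Without control replicate 2 the value was -2.0, with an adjusted p of 0.00805 from the same test.

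**Figure D1:**
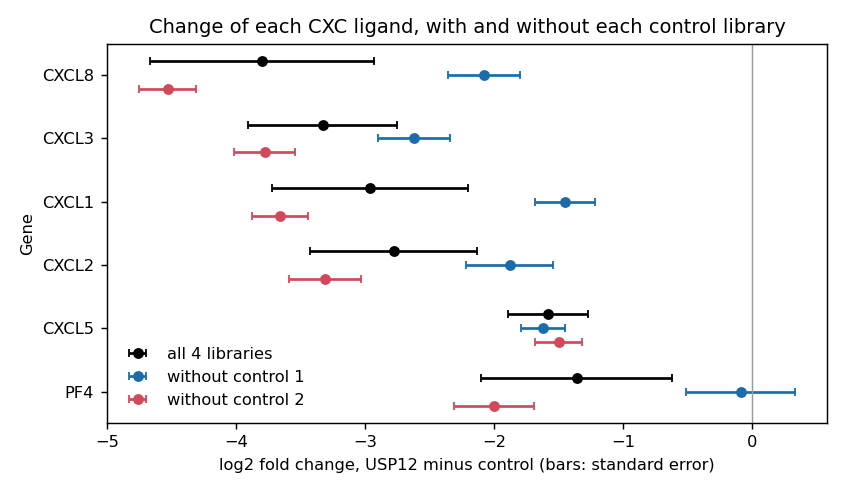
Log2 fold change of each tested ligand, USP12 minus control, with its standard error, from all 4 libraries (black), without control replicate 1 (blue) and without control replicate 2 (red). The 3 estimates nearly coincide for CXCL5 (-1.58, -1.62 and -1.50) and are farthest apart for CXCL8 (-3.80, -2.08 and -4.53), and PF4 is at -0.09 without control replicate 1.

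The spread between the control libraries was a feature of most members. On the log2 scale, control replicate 1 exceeded control replicate 2 by 2.48 for CXCL8, 2.24 for CXCL1, 1.91 for PF4, 1.45 for CXCL2 and 1.19 for CXCL3, and differed by -0.09 for CXCL5. A difference of over 1 in either direction was seen for 83.3% of the members and for 43.5% of all genes tested. Between the USP12 libraries the members differed by -0.34 to 0.36, and none differed by over 1, as against 7.9% of all genes.

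CXCL5 made up most of the members' counts in every library. The members together had 1408 and 1038 CPM in control replicates 1 and 2, against 333 and 338 CPM in USP12 replicates 1 and 2. Without CXCL5 the sums were 556 and 133 CPM against 44 and 38.4 CPM, so the control libraries, close in the full sum, differed widely in the rest. CXCL5 made up 60.5% of the members' counts in control replicate 1 (95% exact binomial interval 59.8 to 61.2) and 87.1% in control replicate 2 (86.7 to 87.6). In the USP12 libraries its share was 86.8% (85.8 to 87.7) and 88.7% (87.7 to 89.5). In this share control replicate 2 was close to the USP12 libraries. CXCL1 took 21.8% of the counts in control replicate 1 (21.2 to 22.4) and 6.28% in control replicate 2 (5.94 to 6.64). It took 8.07% (7.3 to 8.89) and 6.16% (5.5 to 6.87) in the USP12 libraries, where its share overlapped that of control replicate 2. CXCL8 took 9.77% (9.35 to 10.2) and 2.37% (2.16 to 2.6) in control replicates 1 and 2, against 1.54% (1.2 to 1.93) and 1.92% (1.56 to 2.35) in USP12 replicates 1 and 2. The groups were separate in their values, but the intervals of control replicate 2 and USP12 replicate 2 overlapped. CXCL3 took 4.45% (4.16 to 4.76) and 2.64% (2.41 to 2.88), against 1.45% (1.12 to 1.84) and 1.21% (0.92 to 1.55), with intervals that kept the groups apart. CXCL2 took 2.42% and 1.19%, against 1.1% and 0.901%, and the interval of control replicate 2 (1.04 to 1.36) overlapped those of both USP12 libraries. PF4 took 1.05% in control replicate 1 and 0.368% (0.287 to 0.466) in control replicate 2, against 1.06% and 1.08%, so control replicate 2 alone was low in it.

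**Figure D2:**
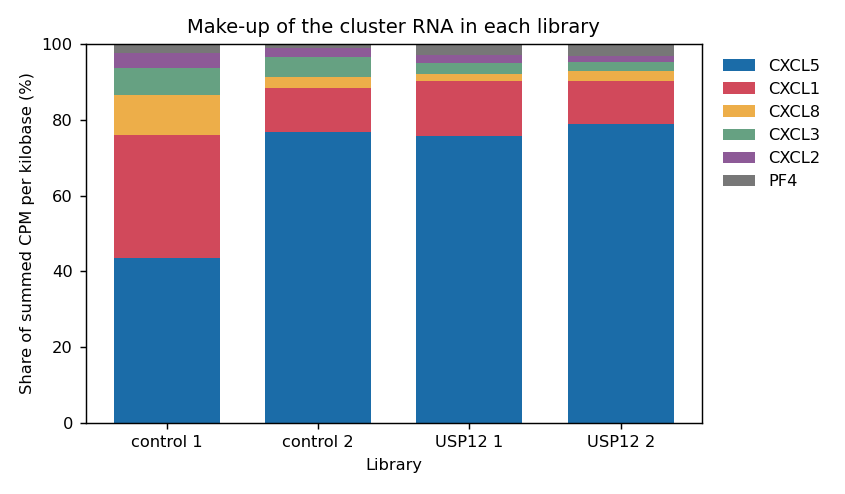
Share of each ligand gene in the members' summed CPM per kilobase of main transcript, in percent, as 1 stacked bar per library. CXCL5 fills 43.5% of the bar of control replicate 1 and between 75.6% and 78.8% of the other 3 bars.

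Ratios between members within a library do not depend on its scaling. Of the 15 pairs of tested members, the log2 ratios of the 2 groups did not overlap in 10, and with 2 libraries against 2 an exact permutation test of a ratio cannot go below p = 0.333. The pairs are drawn from the same 6 genes and are not independent. The share among pairs of all genes was not computed, so the count of 10 only describes these pairs. The ratio of CXCL1 to CXCL2 was 3.17 and 2.39 in control replicates 1 and 2, against 2.83 and 2.72 in USP12 replicates 1 and 2, so the groups overlapped and their means were 2.78 and 2.77. The ratio of CXCL2 to CXCL3 was -0.88 and -1.14 in control replicates 1 and 2, against -0.38 and -0.41 in USP12 replicates 1 and 2. The means differed by 0.61, beside 0.26 between the control libraries, so CXCL3 was lower relative to CXCL2 in USP12 cells. The ratio of CXCL3 to CXCL5 went from -3.76 and -5.04 to -5.87 and -6.15, a difference of the means of -1.61 beside 1.28 between the control libraries. The ratio of CXCL1 to CXCL5, at -1.47 and -3.79 in control replicates 1 and 2, against -3.42 and -3.84 in USP12 replicates 1 and 2, overlapped between the groups. Whether CXCL1 differed more than CXCL5 therefore could not be told from these libraries, while CXCL3 was lower relative to CXCL5 in both USP12 libraries than in either control library.

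Around the cluster, within 1000000 bases of its outer ends, 9 other genes were tested and 2 of them met the criterion for lower RNA, which 4.41% of all genes met. RASSF6, the nearest of the tested genes on the CXCL8 side, had 8.02 and 21.3 CPM in control replicates 1 and 2, against 3.53 and 5.19 CPM in USP12 replicates 1 and 2. Its log2 fold change was -1.75 (SE 0.64, edgeR quasi-likelihood adjusted p = 0.570), and here control replicate 2, not control replicate 1, was the higher. Without control replicate 1 the value was -2.29, and without control replicate 2 it was -0.85 and missed the criterion. PARM1, 1192.6 kb from the CXCL8 start, had 108 and 105 CPM against 5.76 and 5.19 CPM, a log2 fold change of -4.28 that was -4.26 without control replicate 1. MTHFD2L, the first tested gene beyond CXCL2, had 2.12 and 5.65 CPM against 5.33 and 4.36 CPM, and its groups overlapped. The genes of the EGF-family ligands EREG (13 and 79.4 CPM against 20.9 and 26), AREG (26 and 46.6 against 27.4 and 26.4) and BTC (0.227 and 5.1 against 4.1 and 1.66) overlapped as well. COX18, ANKRD17 and the noncoding RP11-44F21.5 had log2 fold changes of 0.28, -0.19 and -0.67, with overlapping groups. The median of the 9 was -0.44.

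**Figure D3:**
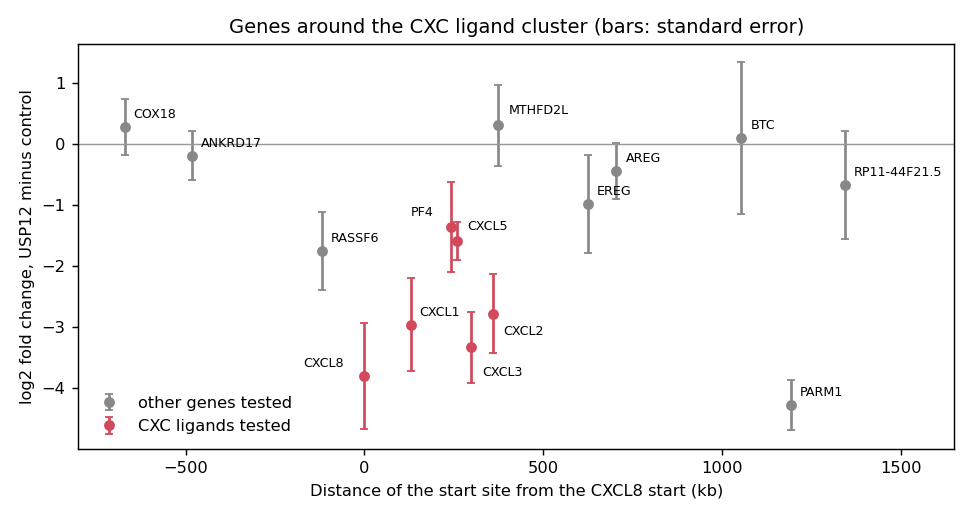
Log2 fold change with standard error of each tested gene near the cluster, against the distance of its start site from that of CXCL8 in kb. The 6 CXC ligands (red) lie between -1.36 and -3.80, and of the other genes (grey) RASSF6 and PARM1 lie at -1.75 and -4.28.

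Among the 9 other CXC ligand genes considered, 1 was tested. CXCL16, a membrane-bound ligand encoded on another chromosome, had 98.5 and 30.5 CPM in control replicates 1 and 2, against 15.3 and 26 CPM in USP12 replicates 1 and 2. It met the criterion, at a log2 fold change of -1.64 (SE 0.65) that became -0.56 without control replicate 1 and then missed the criterion. CXCL9, CXCL10, CXCL11, CXCL13 and CXCL14 had 0 counts in all 4 libraries, CXCL12 had 2 counts in 1 library, and CXCL17 had 4 and 5 counts in control replicates 1 and 2, against 0 and 2 in USP12 replicates 1 and 2. The receptor genes CXCR1, CXCR2, CXCR3 and ACKR1 had 0 counts in every library, so receptor RNA was not detectable at this depth.

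Genes upstream of the cluster were held to the same criterion, which 4.41% of all genes met for lower RNA and 2.92% for higher RNA. Of 12 genes of inducing cytokines and their receptors 7 were tested, with none meeting the criterion in either direction. TNFRSF1A, the main TNF receptor of epithelial cells, had 705 and 387 CPM in control replicates 1 and 2, against 514 and 500 CPM in USP12 replicates 1 and 2. IL17RA, IL1R1 and IL17RC had log2 fold changes of 0.17, 0.41 and -0.68, with overlapping groups. The cytokine genes IL1B, tested, and TNF, below the filter, were named after their values were seen. Control replicate 1 was highest in both, with 71, 0, 0 and 13 counts for IL1B and 30, 7, 0 and 0 counts for TNF in control replicates 1 and 2 and USP12 replicates 1 and 2. Control replicate 1 is also the library highest in CXCL8, CXCL1, CXCL2, CXCL3 and PF4, and the part of these cytokines in that was not tested.

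Of 16 genes of transcription factors and their regulators known to act on the cluster, all were tested. The criterion for lower RNA was met by 1, beside 4.41% of all genes. NFKB2, which encodes a subunit of the noncanonical NF-κB pathway, had 194 and 80.4 CPM in control replicates 1 and 2, against 55.8 and 49.4 CPM in USP12 replicates 1 and 2 (log2 fold change -1.38, SE 0.50). The groups did not overlap, but without control replicate 1 the value was -0.61 and missed the criterion. JUNB, CEBPB, BCL3 and NFKBIA, the most abundant of the list, had log2 fold changes of 0.31, -0.48, -0.18 and -0.46, and of these the groups were separate in CEBPB alone. In 8 of the 16 genes both USP12 libraries were lower, beside 17% of all genes, and the list's median log2 fold change was -0.59 (-0.28 without control replicate 1).

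The factors that act on the stability of these transcripts split in direction. ZC3H12A, an endonuclease that degrades inflammatory mRNAs, had 175 and 51.4 CPM in control replicates 1 and 2, against 28.9 and 26 CPM in USP12 replicates 1 and 2 (log2 fold change -2.04, SE 0.63). ZFP36, tristetraprolin, which binds AU-rich elements and speeds decay, had 168 and 103 CPM against 64.4 and 58.8 CPM (log2 fold change -1.13, SE 0.40). Its relative ZFP36L1 was higher, with 196 and 115 CPM against 235 and 602 CPM (log2 fold change 1.43, SE 0.55), mostly through USP12 replicate 2. Without control replicate 1, ZC3H12A was at -0.90 and ZFP36 at -0.73, and neither met the criterion, while ZFP36L1 was at 1.86. Without control replicate 2, ZFP36L1 was at 1.12 and missed it. KHSRP, HNRNPD, ELAVL1 and MAPKAPK2 had values from -0.00 to 0.46. In all, 2 of the 9 genes met the criterion for lower RNA, beside 4.41% of all genes, and 1 that for higher RNA, beside 2.92%. The list's median was -0.00. With all 4 libraries, none of the 9 had an adjusted p under 0.05 in edgeR's quasi-likelihood test, and neither did any other gene tested.

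The profile of the cluster over the 4 libraries was summarised as the median of the 6 tested members' centred log2 CPM, at 2.10 and 0.48 in control replicates 1 and 2, against -1.13 and -1.44 in USP12 replicates 1 and 2. CXCL2 was nearest to it, at a root mean square distance of 0.0598 on the log2 scale, and CXCL5 and PF4 were farthest, at 0.793 and 0.787. Of the genes outside the cluster the 5 closest were XXbac-B444P24.10 (0.0994), C3 (0.107), ZDHHC8P1 (0.136), HLA-DMA (0.143) and FBLN5 (0.163). C3, the central complement component, had 1169 and 387 CPM in control replicates 1 and 2, against 131 and 121 CPM in USP12 replicates 1 and 2. HLA-DMA, which helps load peptides on MHC class II molecules, had 174 and 43.4 CPM against 16.6 and 12.3 CPM. FBLN5, an elastic fibre protein, had 46.7 and 11.5 CPM against 4.89 and 3.6 CPM. With the profile of CXCL8 alone as the reference, none of these 5 was among the closest 5 (0 shared).

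Markers of other cells were checked beside these values. The epithelial markers summed to 7474 to 12896 CPM over the control libraries, against 6794 to 7316 CPM over the USP12 libraries. KRT8 was at 6075 and 3337 CPM in control replicates 1 and 2, against 2747 and 2515 CPM in USP12 replicates 1 and 2. KRT18 was at 2967 and 1497 CPM against 1372 and 1261 CPM. KRT7 was at 3258 and 2414 CPM against 3041 and 2819 CPM, and its groups overlapped. The groups of CDH1 overlapped too, at 130 and 99.1 CPM against 76.5 and 134 CPM. EPCAM, the lowest of the 6 by level, was at 28.5 and 14.1 CPM against 11 and 9.7 CPM. In 4 of the 6 markers both USP12 libraries were lower, beside 17% of all genes. The list's median log2 fold change was -0.80 (-0.26 without control replicate 1). Of these 6 genes, KRT19 met the criterion (437 and 114 CPM against 68.7 and 55.9), and like CXCL1 was highest in control replicate 1, without which its log2 fold change of -2.14 became -0.87 and missed the criterion. Of 6 platelet and megakaryocyte markers, GP9 and TUBB1 were at 0 in all libraries, and ITGA2B and ITGB3 were the 2 tested. The list summed to 14.7 and 1.22 CPM in control replicates 1 and 2, against 7.2 and 9.14 CPM in USP12 replicates 1 and 2. Control replicate 1 was highest in this sum, as in PF4. Control replicate 2 was lowest in it, whereas in PF4 it was level with the USP12 libraries. The 2 tested markers differed. ITGA2B had 8.1 and 0.942 CPM against 2.88 and 1.45 CPM, with overlapping groups. ITGB3 had 3.86 and 0.111 CPM against 4.25 and 7.69 CPM, higher in both USP12 libraries. The part of these markers in the PF4 result was not tested. Of 7 leukocyte markers, CD3E and MS4A1 were at 0 and PTPRC had at most 1 count in a library, and the list summed to 53 to 112 CPM over the control libraries, against 59.8 to 76.9 CPM over the USP12 libraries, mostly CD68. LYZ was the 1 leukocyte marker to meet the criterion, with 11 and 27 counts against 1 and 3, at a log2 fold change of -3.34 without control replicate 1 and of -2.46, short of the criterion, without control replicate 2. The 6 fibroblast and endothelial markers summed to 11.2 to 31.6 CPM and 17.2 to 20.4 CPM, and CDH5 (136 and 96 counts against 2 and 5) and PECAM1 (68 and 56 against 4 and 14) met the criterion for lower RNA, also without control replicate 1, at -4.39 and -2.28. COL1A1 and PDGFRB of the same list went the other way, with both USP12 libraries above both control libraries. COL1A1 had 13 and 2.6 CPM in control replicates 1 and 2, against 18.9 and 14.6 CPM in USP12 replicates 1 and 2 (log2 fold change 1.10). PDGFRB, below the filter, had 0 and 0 counts against 6 and 11. The part of these lists in the results for the members was not tested.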

How the data were processed

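The authors sequenced 4 stranded mRNA libraries of A549 cells. Per the labels and the study's methods, adaptors and ribosomal RNA reads were removed with Seqtk, reads were mapped to GRCh38 with HISAT2 2.0.4, and uniquely mapped fragments per gene were counted with StringTie 1.3.0. The deposited values are raw counts, without normalization, for 50868 genes. Neither the annotation release nor whether strand was used is given in the sources used here. From the counts, 15222 genes kept by filterByExpr were compared with edgeR 4.0.16 under R 4.3.3 (quasi-likelihood test after TMM scaling, Benjamini-Hochberg adjustment over all genes). Standard errors (SE) are approximate: each is the size of the log2 fold change over the root of its F statistic. CPM use the TMM factors, and log2 CPM a prior count of 2. The depth sets a limit of 3 counts per library. Positions, lengths and transcripts came from GENCODE release 44, which gave a length for 97.6% of identifiers, and promoters from RefSeq (GRCh38.p14). Shares have exact (Clopper-Pearson) 95% intervals. Motifs were searched as plain letters.

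The members and gene lists were chosen with earlier results of these data known. Genes named were all members, PF4V1, USP12, and list genes meeting the criterion with up to 4 more of each list by level. The 5 with the nearest profile and tested genes within 1000000 bases were named as well. Outside this rule, IL1B, TNF, EPCAM and several list genes without counts were also named. The test was first tried on simulated data with genes changed by a log2 fold change of 3 in either direction. At an adjusted p under 0.05 it called 137 of 189 changed genes (72.5%) and made 22 false calls. No simulated library stood apart as control replicate 1 does, so this share does not measure the power in these data. In the real data even USP12, at a log2 fold change of 6.32, had an adjusted p of 0.0975 from edgeR's quasi-likelihood test. The alternatives were DESeq2 1.42.0 size factors and Wald test, no filter, at least 10 counts in every sample, the edgeR exact test, the replicate number as a block, leaving out each library (for called genes outside the cluster, each control library, added after the data were seen), other lengths, another reference profile, a prior count of 0.5 and a looser motif.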

Additional observations from a re-analysis of the deposited data

How the results depend on the processing

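The number of members lower at an adjusted p under 0.05 was 0 with the quasi-likelihood test, with DESeq2 size factors and under the filter of 10 counts in every sample, and 5 with no filter on low counts, the DESeq2 Wald test, the edgeR exact test and the replicate block. Leaving out 1 library gave 0 to 6. By the study's criterion it was 5 in every alternative that kept all libraries, and 4 to 6 when 1 was left out. The median log2 fold change of the members ranged from -3.48 to -1.75 when 1 library was left out.

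Over all genes, those meeting the criterion for lower RNA went from 671 to 1173 with no filter, and to 300 to 2134 when 1 library was left out. At an adjusted p under 0.05, in place of 0, the numbers of lower and higher genes were 361 and 167 with no filter, 273 and 133 in the DESeq2 Wald test, 262 and 167 in the exact test and 251 and 153 with the replicate block. Without 1 library they were 28 to 2612 lower and 12 to 2550 higher.

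With no filter the log2 fold changes were -2.94 for CXCL1, -2.76 for CXCL2, -3.31 for CXCL3, -1.56 for CXCL5 and -3.77 for CXCL8. The Wald test gave -2.99, -2.81, -3.36, -1.60 and -3.83, and the exact test -2.96, -2.78, -3.33, -1.58 and -3.80. With the replicate block they were -2.58, -2.62, -3.22, -1.58 and -3.33. When 1 library was left out, the values ran from -3.66 to -1.45 for CXCL1, -3.31 to -1.88 for CXCL2, -3.78 to -2.62 for CXCL3, -1.62 to -1.50 for CXCL5, -4.53 to -2.08 for CXCL8 and -2.0 to -0.09 for PF4. All had the same sign as with 4 libraries.

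The replicate numbers are not known to pair the samples, and deviations from the group means correlated at 0.152 between same-numbered libraries. Prior degrees of freedom were 4.15, but infinite with the block, with no filter and without either USP12 library, so calls from those fits use the trend and not the spread of the single gene. Per kilobase of coding sequence, the mean control levels were 580 for CXCL1, 72.3 for CXCL2, 140 for CXCL3, 2567 for CXCL5, 273 for CXCL8 and 30.7 for PF4, against 159, 20.8, 41.9, 360, 49.4 and 12 per kilobase of main transcript. With CXCL8 as the reference profile, 0 of the 5 closest genes were shared, and with a prior count of 0.5, 4 were. Of the 11 genes of the other lists and the neighbourhood that met the criterion, 6 met the criterion without control replicate 1 and 8 without control replicate 2, a setting chosen after the data were seen. Depth limits PPBP, at 0 counts, to at most 3 counts a library, and CXCL6 and PF4V1, at 0 to 3 counts, are too low for a fold change.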
